A study of Mus musculus with 12 samples.

Results

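The CDK inhibitors and p53 arrest genes described here are 10 mouse genes: *Cdkn1a*, *Cdkn1b*, *Cdkn1c*, *Cdkn2a*, *Cdkn2b*, *Cdkn2c*, *Cdkn2d*, *Trp53*, *Mdm2* and *Ccng1*. They were chosen by gene symbol, matched to the Ensembl IDs of the deposited table, and they are 10 of its 35727 genes. All 10 were among the 15506 genes that passed the filter on low counts.

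Bulk RNAseq was measured in cultures of fibroblasts taken from pooled hearts of newborn mice, aged Day 0 to Day 3. *Sox17*-*Erg* samples were infected with retroviruses for *Sox17* and *Erg*, transcription factors of the endothelium, to reprogram the fibroblasts toward endothelial cells. Control samples carry the name PMX in their descriptions, which is also the backbone of the retroviruses. Cells were taken for RNA on Day 3, on Day 7 and after 4 weeks. Every group was sequenced as 2 libraries, which gave 12 libraries over 6 groups. Per the methods, PECAM1-positive cells were depleted and THY1-positive fibroblasts selected and plated in a fibroblast medium before infection. The labels name EGM2, a medium for endothelial cells, as the growth medium of all 12 samples. The mice were C57BL/6J or *Tcf21*-CreERT2 crossed with *Rosa26*-tdTomato, and which of them gave these libraries is not given in the sources used here. No sort before RNA isolation is named for these samples, so each library was treated as a mixed culture. In such bulk samples, fewer cells of a type and less RNA per cell cannot be told apart.

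Cyclin-dependent kinases (CDKs) bound to cyclins drive a cell through division, and CDK inhibitor proteins of the Cip/Kip and Ink4 families hold them back. The Cip/Kip proteins p21 (*Cdkn1a*), p27 (*Cdkn1b*) and p57 (*Cdkn1c*) bind complexes of many cyclins and CDKs, whereas the Ink4 proteins p16 and the products of *Cdkn2b*, *Cdkn2c* and *Cdkn2d* bind the kinases CDK4 and CDK6, which work with D-type cyclins. p53 (*Trp53*) switches on *Cdkn1a*, *Ccng1* and its own inhibitor *Mdm2*, whose product marks p53 for destruction. *Cdkn2a* encodes a pair of unrelated proteins from separate first exons, p16Ink4a, a CDK inhibitor, and p19Arf, an inhibitor of Mdm2, and counts per gene do not separate them. Cultured fibroblasts are known to accumulate p16Ink4a and p19Arf as they age in culture. *Cdkn1c* is an imprinted gene, read from the maternal copy.

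The *Cdkn2a*-*Cdkn2b* locus on chromosome 4 held the genes called higher from Day 3 to 4 weeks in both treatments, so its promoter windows are shown. Each window runs from 250 bases before to 50 bases after a transcription start, on the minus strand, from RefSeq on GRCm38, and capitals mark GC boxes (GGGCGG on either strand), the sites known for Sp1-type factors. The first *Cdkn2a* window (chr4:89294570-89294869) is that of the p19Arf first exon, the second (chr4:89282143-89282442) is that of the p16Ink4a first exon, and the *Cdkn2b* window is chr4:89310983-89311282.
*Cdkn2a* start 1: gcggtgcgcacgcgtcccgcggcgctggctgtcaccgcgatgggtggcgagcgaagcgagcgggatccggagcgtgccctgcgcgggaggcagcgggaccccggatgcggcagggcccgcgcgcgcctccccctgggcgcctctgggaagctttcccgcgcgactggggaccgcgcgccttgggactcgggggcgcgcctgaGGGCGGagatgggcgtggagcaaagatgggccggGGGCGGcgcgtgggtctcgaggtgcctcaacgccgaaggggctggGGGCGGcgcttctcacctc
*Cdkn2a* start 2: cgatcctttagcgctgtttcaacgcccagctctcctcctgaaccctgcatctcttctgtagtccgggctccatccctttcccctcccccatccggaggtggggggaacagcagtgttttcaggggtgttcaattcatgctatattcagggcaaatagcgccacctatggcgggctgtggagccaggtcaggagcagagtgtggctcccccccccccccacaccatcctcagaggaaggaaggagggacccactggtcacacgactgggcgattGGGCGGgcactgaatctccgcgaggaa
*Cdkn2b*: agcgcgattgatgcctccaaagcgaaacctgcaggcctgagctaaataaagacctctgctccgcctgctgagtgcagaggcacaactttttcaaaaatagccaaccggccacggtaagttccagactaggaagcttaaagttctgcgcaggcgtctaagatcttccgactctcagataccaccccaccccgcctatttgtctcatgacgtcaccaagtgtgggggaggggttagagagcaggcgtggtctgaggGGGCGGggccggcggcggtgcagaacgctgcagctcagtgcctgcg

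The first *Cdkn2a* window had 77% G and C, 45 CpG dinucleotides and 3 GC boxes. The second had 60.3% G and C, 12 CpG and 1 GC box, and the *Cdkn2b* window had 57.7%, 18 CpG and 1 GC box. Of all 32851 RefSeq windows of this length, 35.7% held a GC box, so its presence does not set these promoters apart. Windows were found for 9 of the 10 genes, 12 windows in all. The p53 half-site decamer, found in 8.36% of all windows, had a match in windows of *Cdkn1a*, *Trp53*, *Mdm2*, *Ccng1* and *Cdkn2d*. A match is a description of the letters and not a site of binding.

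Library totals ran from 19011635 to 41240449 counts. Replicates differed beyond counting error in all 6 groups, with a chi-square of 20.4 to 52.5 per degree of freedom, so none was a library deposited a second time. *Sox17* had 432 to 1040 CPM (the gene's share of the library's counts, scaled by edgeR's TMM factors) in the *Sox17*-*Erg* libraries and no more than 9 counts in any control library. *Erg* had 17.1 to 65.2 CPM against 0.0728 to 2.27 in control. The 8 fibroblast markers summed to 10100 to 39100 CPM over all libraries, and the 9 leukocyte and macrophage markers to 11.8 to 309. No marker was at 0 in both libraries of any group. Of 8 endothelial markers, 4, 5 and 6 were called higher with *Sox17*-*Erg* at the 3 time points and 0, 0 and 1 lower, and of 7 smooth muscle and pericyte markers 2, 4 and 4 higher and 0, 1 and 3 lower. Of the 8 fibroblast markers, 0, 1 and 1 were called higher and 1, 3 and 4 lower. Their median log2 fold changes were -1.2, -1.04 and -1.18, and *Postn* was the gene called higher. Of all genes, 7.19%, 9.48% and 11.9% were called higher and 5.13%, 7.93% and 11.0% lower. Counts were tested over all 15506 genes with edgeR's quasi-likelihood test, and a call needed an adjusted p (Benjamini-Hochberg) below 0.05. Adjusted p values below are from this test, errors are its standard errors (SE, n = 2 against 2), and intervals are 95% intervals of the log2 fold change.

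*Sox17*-*Erg* against control at each time point asked whether the factors moved these brakes on division. At Day 3, 3 of the 10 genes were called, where 12.3% of all genes were: *Cdkn1c* was lower, and *Trp53* and *Mdm2* were higher. At Day 7 edgeR called none (17.4% of all genes), with 1 gene, *Cdkn1c*, at an unadjusted p under 0.05 and called by DESeq2. At 4 weeks 1 was called, *Cdkn1c*, again lower (22.9% of all genes). With the replicate number as a block within time points, the counts were 5, 2 and 2, and that fit called 23.2%, 27.1% and 31.0% of all genes. The median log2 fold change of the 10 genes was 0.29, 0.06 and -0.14 in these comparisons, in time order, and that of all genes was 0.01, 0.00583 and -0.0143.

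**Figure D1:**
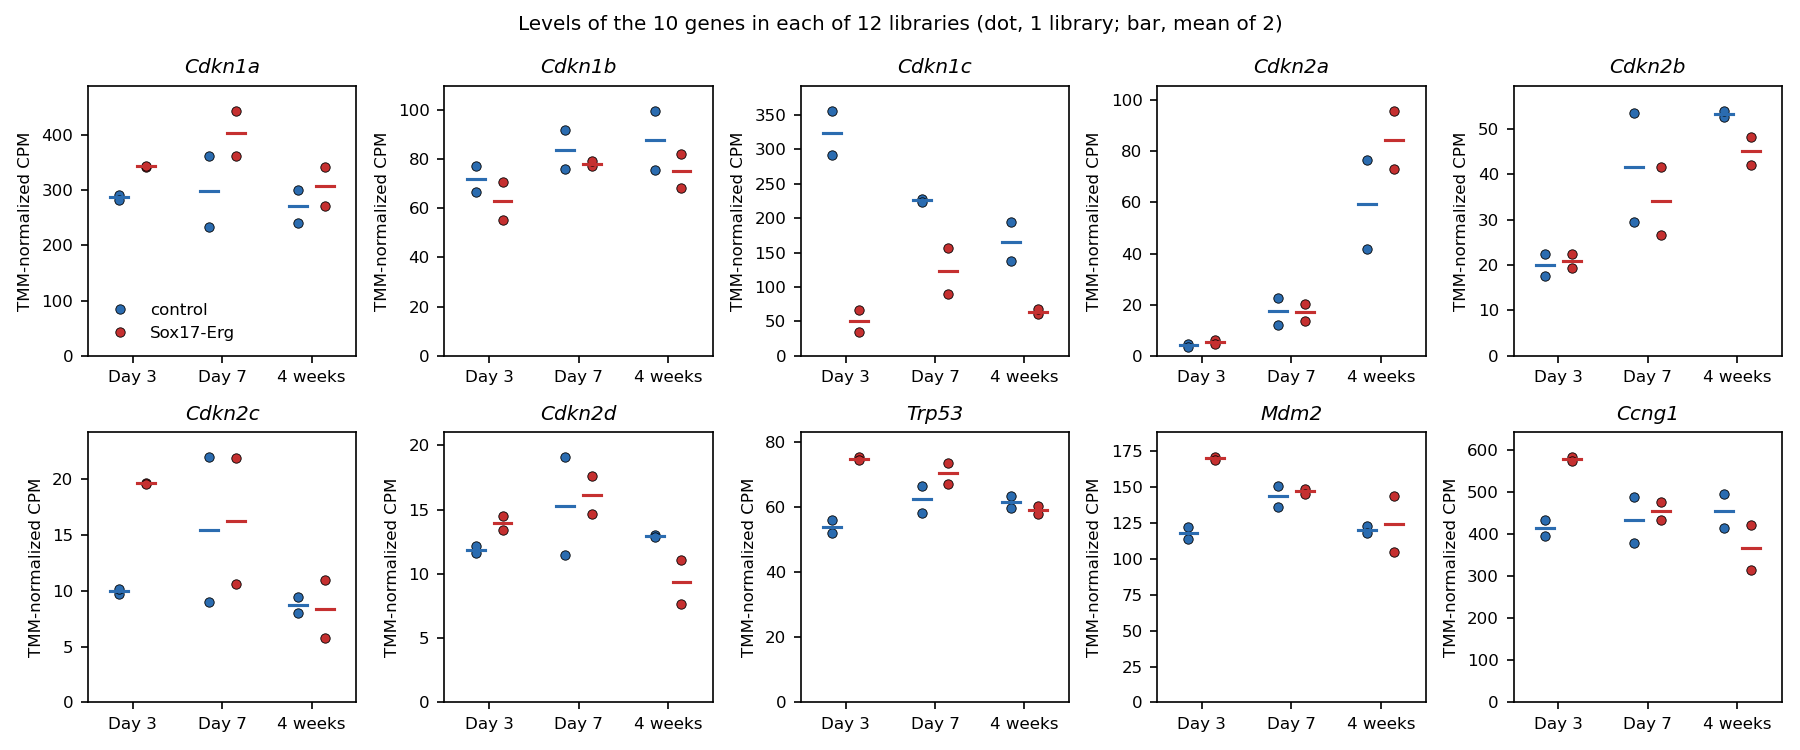
TMM-normalized CPM (y axis, from 0) of each of the 10 genes in the 12 libraries, by time point (x axis) and treatment, where each dot is 1 library and each bar the mean of 2. *Cdkn2a* climbs from 3.65 to 6.07 CPM on Day 3 to 41.8 to 95.9 after 4 weeks in both treatments, and the *Sox17*-*Erg* dots of *Cdkn1c* lie below the control dots at each time point.

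Among the Cip/Kip genes, *Cdkn1c* (ENSMUSG00000037664, GRCm38 chromosome 7, 143458339 to 143461050, minus strand) differed most. The control libraries had 291 and 356 CPM at Day 3, 227 and 224 at Day 7, and after 4 weeks 194 and 137. The *Sox17*-*Erg* libraries had 34.2 and 67, then 89.7 and 156, then 60.4 and 67.4. Every *Sox17*-*Erg* library lay below both control libraries of its time point, and the lowest value of all was at Day 3. The log2 fold change on Day 3 was -2.68 (SE 0.35, 6.39-fold lower, adjusted p = 0.003), on Day 7 -0.88 (interval -1.63 to -0.12, adjusted p = 0.1, or -0.93 and 0.036 with the replicate block) and after 4 weeks -1.37 (SE 0.34, 2.59-fold lower, adjusted p = 0.018). The Day 3 call was kept without each library in turn, with log2 fold changes from -3.24 to -2.31. The call after 4 weeks was lost without control replicate 1 of 4 weeks (-1.1, adjusted p = 0.11), without *Sox17*-*Erg* replicate 1 (-1.3, 0.11) and without *Sox17*-*Erg* replicate 2 (-1.48, 0.065). In an exact stratified permutation test over the 3 time points, two-sided with 216 arrangements, its mean difference was -1.68 with p = 0.0093, the smallest p the design allows (0.033 after adjustment over all genes). At 1 time point, 2 libraries against 2 cannot go below 0.33.

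Mesothelial and cardiomyocyte markers were lower in *Sox17*-*Erg* libraries, as *Cdkn1c* was. The 6 mesothelial markers summed to 295 to 781 CPM in control and 130 to 213 in *Sox17*-*Erg* libraries at Day 3, to 558 to 1070 and 232 to 321 at Day 7, and to 918 to 1450 and 164 to 259 at 4 weeks. Of these 6 markers, 1, 4 and 6 were called lower at the 3 time points. The 8 cardiomyocyte markers summed to 56.3 to 88.4 CPM in control against 33.4 to 53.7, then 82 to 113 against 33.3 to 48.8, then 141 to 237 against 22.4 to 42.1, and 0, 4 and 6 of them were called lower. Of all genes, 5.13%, 7.93% and 11.0% were called lower, and 7.19%, 9.48% and 11.9% higher. Fibroblast markers were called lower for 1, 3 and 4 of 8 at the 3 time points, and higher for 0, 1 and 1. Within control samples, the mesothelial and cardiomyocyte sums rose from Day 3 to 4 weeks. There *Cdkn1c* went from 291 and 356 CPM to 194 and 137. The part of any of these lists in the *Cdkn1c* difference was not tested. *Cdkn1c* has a GC content of 59.84%, above 95.9% of genes with a value, and with an offset for GC content its log2 fold changes were -2.53, -0.88 and -1.36. Its exons share 625 bases with the antisense gene *Gm44732*, not analysed here, and 27.2% of the 31-base words of its transcripts occur there. The library kit keeps strand, but the sources used here do not give whether counting used it.

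*Cdkn1a* (ENSMUSG00000023067, chromosome 17, 29090976 to 29100727, plus strand), the p21 gene and the best known target of p53, had 292 and 283 CPM in control libraries at Day 3, then 362 and 234 on Day 7, and after 4 weeks 301 and 241. The *Sox17*-*Erg* libraries had 342 and 344, then 444 and 362, then 342 and 272. The groups were apart at Day 3 and overlapped at 4 weeks. At Day 7 the higher control library and the lower *Sox17*-*Erg* library both had 362 CPM. The group means were 298 in control and 403 in *Sox17*-*Erg* samples. The log2 fold changes were 0.25 (interval -0.24 to 0.74), 0.43 (-0.06 to 0.93) and 0.18 (-0.31 to 0.67), with adjusted p = 0.48, 0.21 and 0.6. With the replicate block the Day 7 difference was called (0.46, adjusted p = 0.026). Over the 3 time points the exact permutation test gave a mean difference of 0.3 with p = 0.037, or 0.083 after adjustment over all genes. The exons share 273 bases with a gene on the opposite strand that is not analysed here, and 9.78% of the 31-base words of its transcripts occur in other genes.

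*Cdkn1b* (ENSMUSG00000003031, chromosome 6, 134920401 to 134925513, plus strand), the p27 gene, ranged from 66.7 to 99.7 CPM in control and from 55.1 to 81.9 in *Sox17*-*Erg* libraries. The groups overlapped at each time point. Its log2 fold changes of -0.19, -0.1 and -0.22 had intervals that all lay between -0.63 and 0.3.

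Per kb of exon length, where levels of different genes can be set beside each other, *Cdkn1c* was the most abundant of the 10 genes in control samples at Day 3, with 143 to 175 CPM per kb. It held 59.6% and 64.4% of the summed Cip/Kip level in those libraries and 47.2% and 44.3% at 4 weeks. In *Sox17*-*Erg* libraries it held 13.4% and 22.7% on Day 3, 23.7% and 39% on Day 7, and after 4 weeks 21% and 25.9%, with *Cdkn1a* holding 52.1% to 76.9%. The summed Cip/Kip level at Day 3 was 240 and 272 CPM per kb in control and 125 and 145 in *Sox17*-*Erg* libraries, a gap carried by *Cdkn1c*. At Day 7 the sums were 230 and 196 against 186 and 196 and met at the lower control value. At 4 weeks they were 202 and 152 against 141 and 128, which did not overlap.

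None of the 4 Ink4 genes was called between *Sox17*-*Erg* and control at any time point by the test across all 12 libraries. None had an unadjusted p under 0.05 in these comparisons, and DESeq2 called none. *Cdkn2c* (ENSMUSG00000028551, chromosome 4, 109660876 to 109667189, minus strand), the p18 gene, stood apart at Day 3 with 9.75 and 10.2 CPM in control and 19.7 and 19.6 in *Sox17*-*Erg* libraries. The log2 fold change of 0.98 had an interval of -0.06 to 2.01 (adjusted p = 0.19). Libraries of the later time points spread more, with 22 and 8.96 CPM in control at Day 7, 21.9 and 10.6 in *Sox17*-*Erg* at Day 7, 9.47 and 8.05 in control at 4 weeks, and 5.77 and 11 in *Sox17*-*Erg* at 4 weeks. It was called with only the 4 Day 3 libraries in the fit (adjusted p = 0.017), with no filter on low counts (0.016) and with the replicate block (0.98, 0.034).

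The summed level of 21 proliferation genes was read beside *Cdkn2c*. It was higher in both *Sox17*-*Erg* libraries than in both control libraries at Day 3, as *Cdkn2c* was. The genes summed to 797 and 643 CPM in control libraries at Day 3, then 823 and 322 on Day 7, and after 4 weeks 160 and 212. In *Sox17*-*Erg* libraries they summed to 2000 and 1640, then 1310 and 589, then 221 and 425. The library with more *Cdkn2c* also had the higher sum in both groups of Day 7 and in *Sox17*-*Erg* at 4 weeks, but not in control at Day 3 or 4 weeks. Of the 21 genes, *Sox17*-*Erg* was called higher for 2 at Day 3, for none at Day 7 and for 3 at 4 weeks, where 7.19%, 9.48% and 11.9% of all genes were, so these counts were near or under the background. Called or not, 21, 21 and 18 of the 21 had a positive log2 fold change. Their medians were 1.21, 0.72 and 1.45, and those of all genes were 0.01, 0.00583 and -0.0143. Their part in the *Cdkn2c* values was not tested.

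**Figure D2:**
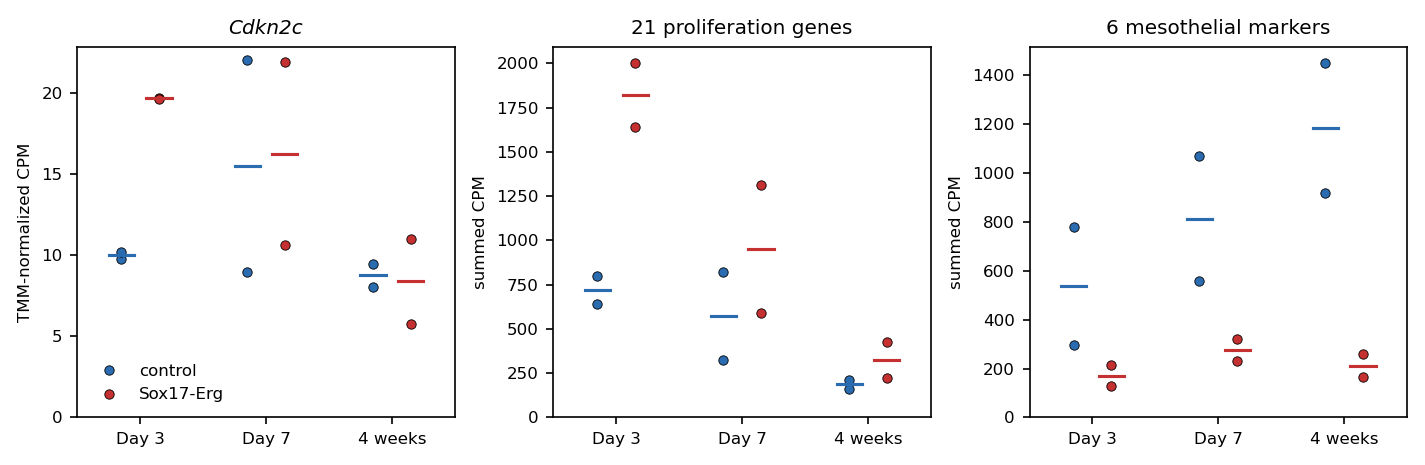
*Cdkn2c* in TMM-normalized CPM and the summed CPM of 21 proliferation genes and 6 mesothelial markers (y axes, from 0) by time point (x axis), with 1 dot per library and bars for means of 2. *Cdkn2c* and the proliferation sum are higher in *Sox17*-*Erg* libraries at Day 3, with 1640 to 2000 against 643 to 797 for the sum, and the mesothelial sum is lower at every time point.

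*Cdkn2a*, *Cdkn2b* and *Cdkn2d* were not called either. With the replicate block *Cdkn2a* was called higher in *Sox17*-*Erg* samples at 4 weeks (0.56, adjusted p = 0.024), where each *Sox17*-*Erg* library lay above the control library of its number, at 95.9 against 76.7 CPM and 73.2 against 41.8. Without the block, for *Cdkn2a* the log2 fold changes were 0.33 (interval -0.58 to 1.25), -0.03 (-0.85 to 0.8) and 0.51 (-0.29 to 1.31), wide enough to leave room for a change of more than 2-fold at Day 3 and at 4 weeks. For *Cdkn2b* they were 0.06 (-0.59 to 0.71), -0.29 (-0.92 to 0.35) and -0.24 (-0.88 to 0.39). For *Cdkn2d* (ENSMUSG00000096472, chromosome 9, 21288410 to 21291407, minus strand), the p19Ink4d gene, they were 0.23 (-0.33 to 0.79), 0.08 (-0.47 to 0.63) and -0.46 (-1.02 to 0.09).

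Of *Trp53*, *Mdm2* and *Ccng1*, the first and second were called higher in *Sox17*-*Erg* samples at Day 3 and the last was not. *Trp53* (ENSMUSG00000059552, chromosome 11, 69580359 to 69591873, plus strand) had 52 and 56.1 CPM in control and 75.5 and 74.5 in *Sox17*-*Erg* libraries. *Mdm2* (ENSMUSG00000020184, chromosome 10, 117688875 to 117710758, minus strand) had 114 and 122 against 171 and 169, and *Ccng1* (ENSMUSG00000020326, chromosome 11, 40748552 to 40755311, minus strand), which encodes cyclin G1, had 397 and 434 against 584 and 574. For all 3 genes both *Sox17*-*Erg* libraries lay above both control libraries, and the replicates of a group were close to each other. *Trp53* rose 1.39-fold (log2 0.47, SE 0.1, adjusted p = 0.022) and *Mdm2* 1.44-fold (log2 0.53, SE 0.14, adjusted p = 0.046). *Ccng1* had a log2 fold change of 0.48 (interval 0.07 to 0.89) and was not called (adjusted p = 0.12), but it was called with the replicate block (0.48, adjusted p = 0.027).

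At Day 7 the log2 fold changes were closer to 0. *Trp53* had 58.3 and 66.6 CPM in control and 73.8 and 67.1 in *Sox17*-*Erg* libraries (log2 0.17, interval -0.06 to 0.41). *Mdm2* had 151 and 136 against 149 and 145 (0.04, -0.29 to 0.36), and *Ccng1* had 488 and 380 against 476 and 433 (0.07, -0.34 to 0.48). At 4 weeks the log2 fold changes were -0.06, 0.04 and -0.31, with intervals between -0.72 and 0.37. Whether the effect at 4 weeks differed from that at Day 3 was tested as an interaction, in which 3.21% of all genes were called, 2.22% with a higher and 0.987% with a lower effect at 4 weeks. None of the 10 genes was called by edgeR as fitted here or by DESeq2, and 4 had an unadjusted p under 0.05, *Cdkn1c*, *Trp53*, *Mdm2* and *Ccng1*. The difference was -0.53 for *Trp53* (interval -0.86 to -0.2, adjusted p = 0.096), -0.48 for *Mdm2* (-0.94 to -0.02, 0.27), -0.78 for *Ccng1* (-1.36 to -0.2, 0.15, or -0.79 and 0.038 with the replicate block, which called 6.89% of all genes) and 1.3 for *Cdkn1c* (0.24 to 2.37, 0.2, or 1.29 and 0.0047 with no filter on low counts).

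The 2 calls of Day 3 in this group rested on few libraries. The *Trp53* call was lost without any 1 of the 4 Day 3 libraries (adjusted p = 0.061 to 0.17). The *Mdm2* call was lost without 10 of the 12 libraries in turn, the exceptions being both *Sox17*-*Erg* libraries of 4 weeks, with a highest adjusted p of 0.27. It was also lost with RLE size factors (0.055) and with the GC offset (0.078). The log2 fold changes stayed between 0.42 and 0.49 for *Trp53* and between 0.48 and 0.54 for *Mdm2* without each library. Of the 31-base words of their transcripts, 10.2% for *Trp53* and 1.99% for *Mdm2* occur in transcripts of other genes.

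**Figure D3:**
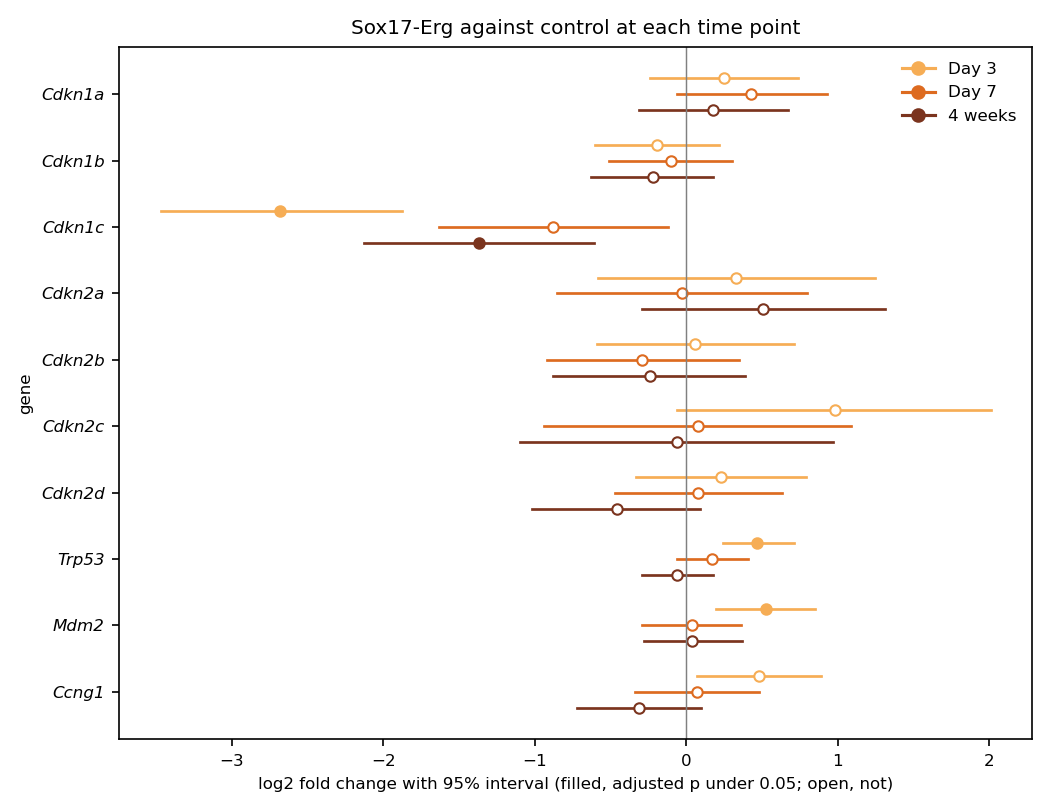
Log2 fold change of *Sox17*-*Erg* over control (x axis) with its 95% interval for the 10 genes (y axis) at Day 3, Day 7 and 4 weeks, where filled points had an adjusted p under 0.05. *Cdkn1c* lies at -2.68, -0.88 and -1.37, and *Trp53* and *Mdm2* are the filled points on the right at Day 3, at 0.47 and 0.53.

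Genes around the members were read from fixed lists. Of 22 other p53 targets, 3 were called higher and 3 lower in *Sox17*-*Erg* samples at Day 3 (7.19% and 5.13% of all genes), 6 and 2 at Day 7 (9.48% and 7.93%), and after 4 weeks 5 and 1 (11.9% and 11.0%). Their median log2 fold changes were 0.25, 0.37 and 0.14. *Pmaip1*, which encodes the death-promoting protein Noxa, had 2.82 to 5.64 CPM in the 6 control libraries and 15.9 to 32.1 in the 6 *Sox17*-*Erg* libraries. Its log2 fold changes were 2.06 (SE 0.38, adjusted p = 0.012), 2.75 (SE 0.38, 0.0018) and 2.55 (SE 0.38, 0.0016). *Sesn1*, a stress-response gene that restrains growth signalling, had -1.29 (SE 0.25, adjusted p = 0.014), -1.95 (SE 0.25, 0.0012) and -1.78 (SE 0.25, 0.0011). *Plk2* was higher by 2.32 at 4 weeks (SE 0.33, adjusted p = 0.0013). Targets were thus called in both directions at each time point.

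The Day 3 calls of *Pmaip1* and *Sesn1* were lost in 2 and 3 of 19 alternatives. The later calls of *Pmaip1* and *Sesn1* and the *Plk2* call of 4 weeks were kept in 19 of 19. *Rb1*, the pocket protein that Ink4 inhibitors act through by blocking CDK4 and CDK6, was higher in *Sox17*-*Erg* samples, with 14.8 to 20.6 CPM in control and 29.2 to 53.7 in *Sox17*-*Erg* libraries. Its log2 fold changes were 0.79 (SE 0.17, adjusted p = 0.019, lost in 3 of 19 alternatives), 1.43 (SE 0.17, 0.00083) and 1.38 (SE 0.17, 0.00057). Of the 10 pocket proteins and E2F factors, *Rb1* alone was called higher at each time point, and *Rbl2* was called lower at Day 7 (-0.69, SE 0.15, adjusted p = 0.013) and at 4 weeks (-0.56, SE 0.15, 0.025), both lost in 3 of 19 alternatives. *Ccnd3*, a D-type cyclin, was lower at 4 weeks, with a log2 fold change of -0.81 (SE 0.12, adjusted p = 0.0015), with 277 and 274 CPM in control and 166 and 148 in *Sox17*-*Erg* libraries. Of the 8 D-type and E-type cyclins and their kinases, 1, 0 and 1 were called higher and 0, 1 and 1 lower, near the shares of all genes (7.19%, 9.48% and 11.9% higher, and 5.13%, 7.93% and 11.0% lower). *Rb1* and *Ccnd3* share exon bases with genes on the opposite strand.

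Time within the control samples asked what culture did without the factors. Between Day 3 and Day 7, 1 of the 10 genes was called, *Cdkn2a*, which was higher (8.76% of all genes were called, 4.70% higher and 4.06% lower, shares that rest on 729 and 629 genes and on 59 to 885 and 32 to 614 without single libraries). Between Day 7 and 4 weeks edgeR called none (0.393% of all genes), with 1 gene, *Cdkn2a*, at an unadjusted p under 0.05 and called by DESeq2. Between Day 3 and 4 weeks 2 were called, *Cdkn2a* and *Cdkn2b*, both higher (26.5% of all genes were called, 13.9% higher). The median log2 fold change of the 10 genes was 0.25, -0.08 and 0.12 in the 3 comparisons, and that of all genes was -0.00792, 0.016 and -0.00855.

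*Cdkn2a* (ENSMUSG00000044303, chromosome 4, 89274471 to 89294653, minus strand) had 4.66 and 3.65 CPM in control libraries at Day 3, then 22.8 and 12.1 on Day 7, and after 4 weeks 76.7 and 41.8. Each time point lay wholly above the one before it, with replicate 1 well above replicate 2 at Day 7 and 4 weeks. It rose 4.18-fold by Day 7 (log2 2.06, SE 0.4, adjusted p = 0.018) and 14.2-fold by 4 weeks (log2 3.83, SE 0.41, adjusted p = 0.00056). The step from Day 7 to 4 weeks had a log2 fold change of 1.76 (interval 0.93 to 2.6, adjusted p = 0.086). The rise to 4 weeks was called without each library in turn (log2 3.33 to 4.2, adjusted p up to 0.01). The rise to Day 7 was lost without control replicate 1 or 2 of Day 3 (adjusted p = 0.11 and 0.12) and without control replicate 1 of Day 7 (log2 1.56, 0.052). Its counts ran from 79 to 3059, and none of its 31-base words occurred in another gene.

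*Cdkn2b* (ENSMUSG00000073802, chromosome 4, 89306299 to 89311039, minus strand), the p15 gene next to *Cdkn2a*, had 22.4 and 17.6 CPM in control libraries at Day 3, then 53.5 and 29.5 on Day 7, and after 4 weeks 52.5 and 54. The Day 7 and 4-week libraries were all above those of Day 3. It rose 2.66-fold by 4 weeks (log2 1.41, SE 0.29, adjusted p = 0.0082), a call lost without control replicate 2 of Day 3 (log2 1.23, 0.069). The log2 fold change to Day 7 was 1.05 (interval 0.4 to 1.7, adjusted p = 0.054).

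The other members of the control time course were not called. *Cdkn1c* had a log2 fold change of -0.97 from Day 3 to 4 weeks (interval -1.72 to -0.22, adjusted p = 0.061), and DESeq2 called it (0.016). The values were -0.19 for *Cdkn2c* (-1.22 to 0.85) and 0.12 for *Cdkn2d* (-0.43 to 0.68), the Ink4 genes outside the *Cdkn2a*-*Cdkn2b* locus. *Trp53*, *Mdm2* and *Ccng1* had log2 fold changes of 0.19, 0.04 and 0.13, with intervals between -0.29 and 0.54. *Cdkn1a* had -0.09 (-0.58 to 0.4) and *Cdkn1b* had 0.29 (-0.12 to 0.69).

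In *Sox17*-*Erg* samples, 5 of the 10 genes were called between Day 3 and 4 weeks (30.7% of all genes were): *Cdkn2a* and *Cdkn2b* were higher, and *Trp53*, *Mdm2* and *Ccng1* were lower. *Cdkn2a* had 6.07 and 4.48 CPM at Day 3, 20.3 and 13.8 at Day 7, and after 4 weeks 95.9 and 73.2. It rose 16.1-fold (log2 4.01, SE 0.41, adjusted p = 0.00051), with no overlap between time points, and the call was kept without each library (log2 3.8 to 4.29). *Cdkn2b* had 22.4 and 19.3, then 41.5 and 26.5, then 48.1 and 42 CPM. It rose 2.16-fold (log2 1.11, SE 0.29, adjusted p = 0.019), which was lost without either *Sox17*-*Erg* library of Day 3 (0.066 and 0.1) or *Sox17*-*Erg* replicate 1 of 4 weeks (0.086). The interaction of *Cdkn2a* was 0.18 (interval -1.04 to 1.4, adjusted p = 0.92) and that of *Cdkn2b* -0.3 (-1.21 to 0.61), so a difference between the treatments in these rises was not detectable with 2 libraries a group.

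In the *Sox17*-*Erg* time course *Trp53* fell from 75.5 and 74.5 CPM to 60.5 and 57.9 (log2 -0.34, SE 0.1, adjusted p = 0.034). *Mdm2* fell from 171 and 169 to 144 and 105 (log2 -0.45, SE 0.14, 0.043), and *Ccng1* from 584 and 574 to 422 and 315 (log2 -0.65, SE 0.18, 0.025). Both 4-week values of *Trp53* lay within the range of the 6 control libraries, 52 to 66.6 CPM. For *Mdm2* (control range 114 to 151) and *Ccng1* (380 to 497), 1 of the 2 lay within it and the other below. Without single libraries the *Trp53* call was lost in 9 of 12 fits, the *Mdm2* call in 11 and the *Ccng1* call in 4, with highest adjusted p of 0.19, 0.22 and 0.15. With RLE size factors the *Trp53* and *Mdm2* calls ended (0.051 and 0.062), as they did with the GC offset (0.063 and 0.1), which left 3 of the 10 genes called. Fits that left out a library outside this contrast were among those that lost a call, and the cause was not tested. Without single libraries the log2 fold change ran from -0.35 to -0.28 for *Trp53*, from -0.65 to -0.23 for *Mdm2* and from -0.83 to -0.46 for *Ccng1*. *Cdkn2c* had a log2 fold change of -1.23 (interval -2.27 to -0.18, adjusted p = 0.073) and *Cdkn1c* of 0.34 (-0.42 to 1.09).

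**Figure D4:**
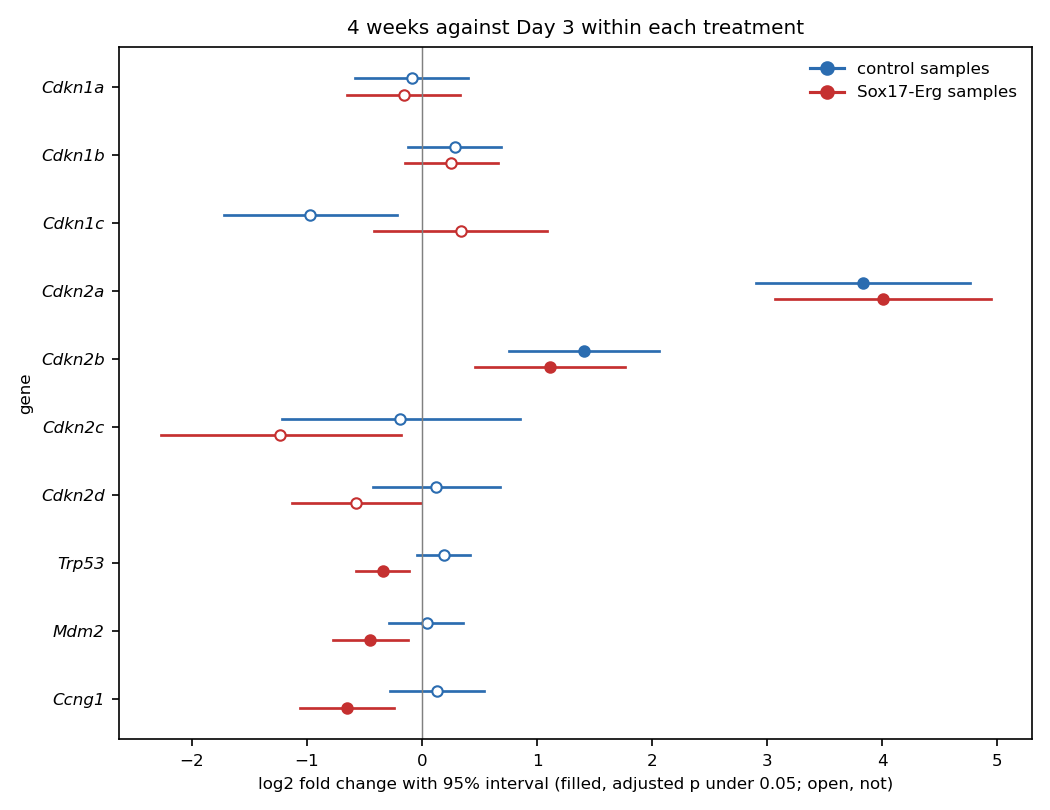
Log2 fold change from Day 3 to 4 weeks (x axis) with its 95% interval for the 10 genes (y axis) within control and within *Sox17*-*Erg* samples, where filled points had an adjusted p under 0.05. *Cdkn2a* lies at 3.83 and 4.01 and *Cdkn2b* at 1.41 and 1.11, filled in both treatments, and *Trp53*, *Mdm2* and *Ccng1* are filled in *Sox17*-*Erg* samples.

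The makeup of the Ink4 family turned over with time in both treatments. Summed over the 4 genes, the level per kb of exon length was 31.1 and 27.2 CPM per kb in control libraries at Day 3, then 78.3 and 42.3 on Day 7, and after 4 weeks 115 and 85.8. In *Sox17*-*Erg* libraries it was 37.1 and 34.2, then 66.5 and 44.2, then 123 and 104. *Cdkn2a* held 12.7% and 11.4% of that sum in control libraries at Day 3, then 24.8% and 24.6% on Day 7, and after 4 weeks 56.9% and 41.6%. In *Sox17*-*Erg* libraries its share was 14% and 11.2%, then 26% and 26.7%, then 66.3% and 60.2%. It thus went from the lowest mean level per kb of the 10 genes at Day 3 in both treatments to rank 4 in control and rank 3 in *Sox17*-*Erg* samples after 4 weeks. *Cdkn2b* held the largest share in every library of Day 3 and Day 7, 40.6% to 52%. At 4 weeks it still did in control replicate 2, with 45.3%, and *Cdkn2a* did in the other libraries.

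**Figure D5:**
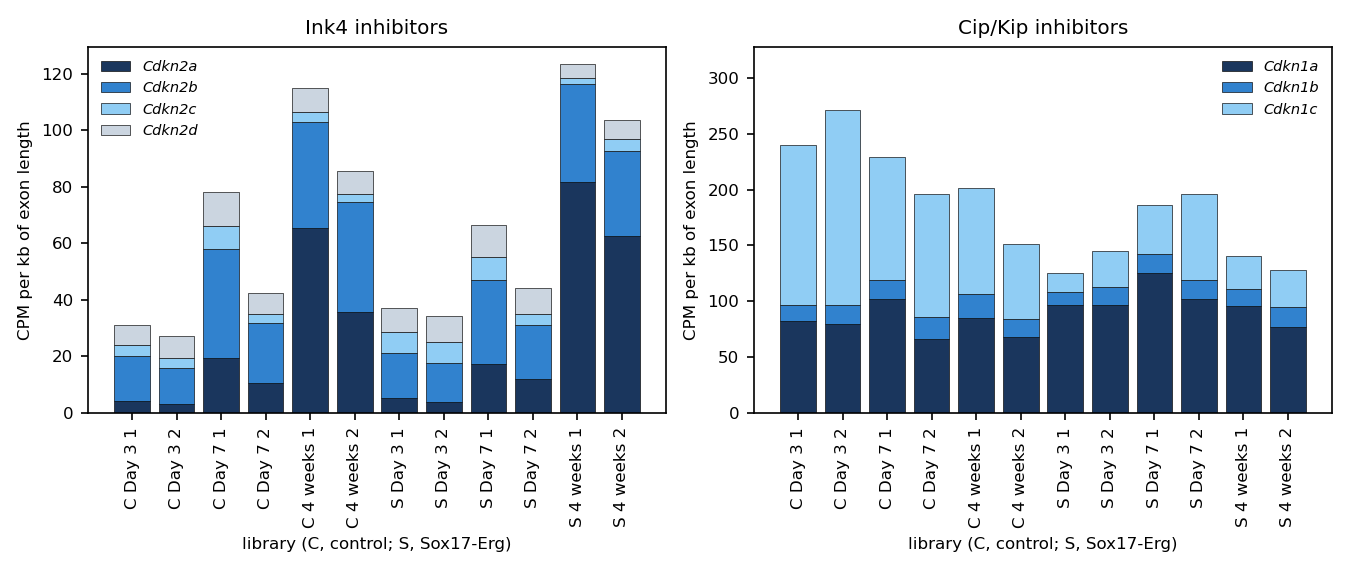
Stacked levels of the Ink4 genes and of the Cip/Kip genes in CPM per kb of exon length (y axes, from 0) in the 12 libraries (x axes, C for control and S for *Sox17*-*Erg*, with time point and replicate). The *Cdkn2a* segment grows from 11.2% to 14% of the Ink4 stack at Day 3 to 41.6% to 66.3% at 4 weeks, and the *Cdkn1c* segment is the larger part of the control Cip/Kip stacks at Day 3.

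Ordered by mean level per kb, *Cdkn1c* (159 CPM per kb), *Ccng1* (118) and *Cdkn1a* (81) led in control samples at Day 3, each apart from the next. *Mdm2* (23.2) followed, and then *Cdkn1b* (15.8), *Cdkn2b* (14.4) and *Trp53* (13.4), whose neighbours overlapped. *Cdkn2d* (7.54), *Cdkn2c* (3.71) and *Cdkn2a* (3.54) came last, the final pair overlapping. In *Sox17*-*Erg* samples at 4 weeks the order began with *Ccng1* (105), *Cdkn1a* (86.3) and *Cdkn2a* (72.2), which overlapped in turn. *Cdkn2b* (32.4) and *Cdkn1c* (31.4) overlapped next, and *Cdkn2c* (3.13) was lowest.

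Proliferation genes fell while *Cdkn2a* rose. Of the 21, 15 were called lower from Day 3 to 4 weeks in control samples (12.6% of all genes were) and 20 in *Sox17*-*Erg* samples (15.6%). None was called higher, where 13.9% of all genes were in control and 15.1% in *Sox17*-*Erg* samples. Their median log2 fold changes were -3 and -2.92. Of the 6 mesothelial markers, 1 was called higher and 1 lower with time in control samples, and 0 and 1 in *Sox17*-*Erg* samples. Smooth muscle and pericyte markers were called higher for 4 and lower for 1 of 7 in control, and for 3 and 0 in *Sox17*-*Erg* samples, with sums of 256 to 297 CPM at Day 3 and 169 to 187 after 4 weeks in control, and 331 to 511 and 921 to 990 in *Sox17*-*Erg* libraries. Endothelial markers were called higher for 2 and lower for 1 of 8 in each treatment, and fibroblast markers for 2 and 4 of 8 in control and 1 and 4 in *Sox17*-*Erg* samples. The fibroblast sum went from 29800 to 35800 CPM to 12500 to 14000 in control, and from 25100 to 39100 to 10100 to 11000 in *Sox17*-*Erg* libraries. Cardiomyocyte markers were called higher for 2 and lower for 0 of 8 in control, and for 0 and 3 in *Sox17*-*Erg* samples, and leukocyte markers were called lower for 2 and 0 of 9. The part of any of these lists in the *Cdkn2a* values was not tested.

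The Polycomb proteins are known to keep the *Cdkn2a*-*Cdkn2b* locus silent, and 11 of their genes were read. From Day 3 to 4 weeks 3 were called higher and 3 lower in control samples, and 3 and 2 in *Sox17*-*Erg* samples, where 13.9% and 12.6% of all genes were in control and 15.1% and 15.6% in *Sox17*-*Erg*. *Ezh2*, a Polycomb methyltransferase, fell (log2 -1.79, SE 0.34, adjusted p = 0.0057 in control and -1.58, SE 0.33, 0.0077 in *Sox17*-*Erg*). These calls were lost in 1 and 2 of 18 alternatives. *Ezh1*, the other methyltransferase of the list, was called higher (1.29, SE 0.29, 0.013 in control and 1.08, SE 0.29, 0.023 in *Sox17*-*Erg*). *Cbx7*, a Polycomb reader of chromatin, rose (3.87, SE 0.36, 0.00034 and 2.98, SE 0.35, 0.00079). It went from 1.6 and 1.76 CPM to 28.2 and 20.9 in control and from 2.48 and 1.29 to 13.8 and 15.7 in *Sox17*-*Erg* libraries. *Bmi1* rose as well (1.08, SE 0.16, 0.002 and 1.2, SE 0.16, 0.0013). *Cbx7* shares 100 exon bases with *Apobec3* on the opposite strand.

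Of the D-type and E-type cyclins and their kinases, 2 were called higher and 2 lower with time in control samples, and 2 and 5 of 8 in *Sox17*-*Erg* samples. Of all genes, 13.9% and 12.6% were called in these directions in control and 15.1% and 15.6% in *Sox17*-*Erg* samples. *Ccnd3* rose in control (log2 0.79, SE 0.12, adjusted p = 0.0022), and *Ccne1*, an E-type cyclin that drives entry into DNA synthesis, fell in both (-1.39, SE 0.4, 0.031 and -1.94, SE 0.4, 0.0076, lost in 3 and 1 of 18 alternatives). *Rbl2*, a pocket protein of resting cells, rose in both (1.48, SE 0.15, 5e-04 and 1.31, SE 0.15, 0.00076), and *E2f7*, a repressor of E2F targets, fell in both (-3.24, SE 0.67, 0.0087 and -3.44, SE 0.63, 0.0048). The *E2f7* call in control was lost in 1 of 18 alternatives. Of 22 p53 targets, 5 were called higher and 5 lower in control and 6 and 3 in *Sox17*-*Erg* samples.

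The members with the widest range of group means on the log2 CPM scale were *Cdkn2a* (4.32), *Cdkn1c* (2.75) and *Cdkn2b* (1.42). Over the 12 libraries, the genes whose log2 CPM followed *Cdkn2a* most closely were *Pptc7* and *Ppp1r3a* (Pearson r = 0.978 for each) and *Gm42517* (0.97). For *Cdkn1c* they were *Pgam2* (0.977), *Pdlim2* (0.955) and *Vps26c* (0.954), and for *Cdkn2b* *Il13ra1* (0.943), *Ctsc* (0.931) and *Tbx5* (0.919). These are descriptions over libraries that share time points and treatments.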

How the data were processed

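Estimated counts per Ensembl gene, which the authors deposited after quantifying stranded mRNA libraries with Salmon, were already rounded to whole numbers and not scaled for library size. Per the labels, base calls were made with bcl2fastq 2.20.0 and mm10 is the genome build named. High GC content was trimmed from reads before quantification, per the study's methods. The Salmon version and annotation are not given in the sources used here. Symbols, positions, lengths and GC content came from GENCODE M21 on GRCm38.

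Groups came from sample titles. The fit used edgeR 4.0.16 under R 4.3.3 (TMM scaling; filterByExpr keeping genes by minimum count 10 and total 15; 1 mean per group over all 12 libraries; 6 residual degrees of freedom), and a gene was called at an adjusted p under 0.05. The study's methods used DESeq2, tried here as an alternative (1.42.0). Log2 CPM used a prior count of 2. All 10 members are named. From the 9 other gene lists and 6 marker lists, at most the 4 called genes with the largest log2 fold change per comparison could be named, and of these mainly genes called in most alternatives were printed, a choice made after their values were seen. Members and lists were chosen with earlier results of these data known. The labels do not give whether replicates were separate isolations, so p-values measure the spread between these libraries, which may be technical. Same-numbered libraries deviated from their group means with correlations of 0.186, 0.301 and 0.171 between treatments, so the block within time points is given beside treatment results whose call it changes. Between time points the correlations ran from -0.11 to 0.219, and no pairing was taken there. The labels do not say what the numbers share. Depth sets counting error only, which over all genes was far below the spread between replicates. It was not for each member with few counts, such as *Cdkn2c* in control at Day 3, with 268 and 221 counts at 9.75 and 10.2 CPM. Other alternatives were RLE size factors, no filter, replicate blocks, fits of the 4 libraries compared, a GC-content offset and leaving out each library. The test was run on simulated data before use. The study's other experiments were not analysed here.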

Additional observations from a re-analysis of the deposited data

Results flagged for a closer look

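With the test as reported, none of the 10 genes was called for a difference between time points in its response to *Sox17*-*Erg*. Of the 9 other gene lists, 8 genes were, by edgeR's interaction of treatment with 4 weeks against Day 3, which called 3.21% of all genes. Among the marker lists *Pecam1*, *Postn*, *Cspg4*, *Myh11* and *Notch3* were called with a higher effect at 4 weeks and *Abcc9* with a lower one. Values are the log2 effect at 4 weeks minus that at Day 3. *Igfbp3*, a secreted binder of insulin-like growth factors, had a difference of -5.67 (SE 0.54, adjusted p = 0.0022), with an effect of 4.83 at Day 3 and -0.84 at 4 weeks. Its mean level at Day 3 was 22.2 CPM in control and 633 in *Sox17*-*Erg* samples, and at 4 weeks 1500 and 838. *Ccl2*, a chemokine, had -1.4 (SE 0.19, 0.0079), with effects of 1.74 and 0.34. Both differences were kept in 18 of 18 alternatives.

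The p53 target *Bbc3*, which encodes Puma, had 1.06 (SE 0.24, adjusted p = 0.049), from -0.04 to 1.02, and *Skp1a*, of the complex that marks p27 for destruction, had -0.67 (SE 0.15, 0.042), from 0.57 to -0.11. Among imprinted genes, *Plagl1* had 2.39 (SE 0.52, 0.044), *Slc38a4* -1.92 (SE 0.39, 0.036), *Igf2r* 1.29 (SE 0.27, 0.037) and *Ndn* -1.15 (SE 0.22, 0.026). *Slc38a4* was at 0.693 and 0.199 CPM at 4 weeks, so its ratio rests on few counts. These 6 differences were lost in 7 to 15 of 18 alternatives.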

How the results depend on the processing

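Of 510 values of single members under the alternatives other than leaving out a library, 468 kept their direction and their side of the threshold, and 856 of 960 did without single libraries. The number of members called changed by more than 1.5 times as follows. With a replicate block over all libraries (pairing by number) it was 2 for *Sox17*-*Erg* against control at 4 weeks (*Cdkn2a* added), 2 for control Day 7 against Day 3 (*Cdkn2b* added) and 1 for control 4 weeks against Day 7 (*Cdkn2a*). With the block within time points it was 5 at Day 3 (*Cdkn2c* and *Ccng1* added), 2 at Day 7 (*Cdkn1a*, *Cdkn1c*), 2 at 4 weeks (*Cdkn2a* added) and 1 for the difference in effect (*Ccng1*), while calls over all genes went from 1115 higher and 795 lower to 1973 and 1619 at Day 3. With DESeq2 it was 1 at Day 7, 2 for control Day 7 against Day 3 and 1 for control 4 weeks against Day 7, with no filter 1, 2 and 1 for the same and 1 for the difference in effect (*Cdkn1c*), with only the 4 libraries compared 5 at Day 3, and with RLE factors or the GC offset 3 for *Sox17*-*Erg* 4 weeks against Day 3 (*Trp53* and *Mdm2* lost). Smaller changes were 2 in place of 3 at Day 3 with RLE factors or the GC offset and 4 with no filter, 3 in place of 2 for control 4 weeks against Day 3 with DESeq2, no filter, the GC offset or 4 libraries, and for *Sox17*-*Erg* 4 weeks against Day 3 6 in place of 5 with DESeq2 and 4 with no filter or 4 libraries. Without single libraries it ran from 1 to 3 at Day 3, 0 to 1 at Day 7, 0 to 1 at 4 weeks, 0 to 2 for control Day 7 against Day 3, 1 to 3 for control 4 weeks against Day 3 and 1 to 6 for *Sox17*-*Erg* 4 weeks against Day 3. The cause of these changes was not tested.

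No called member or list gene changed sign. Signs of uncalled members turned as follows. Under both blocks *Cdkn2a* was 0 at Day 7, and under the GC offset *Cdkn2c* was 0.01 and *Trp53* 0.02 at 4 weeks, *Trp53* 0 in control 4 weeks against Day 7 and *Cdkn1b* 0.05 in the difference in effect. Without single libraries, *Sox17*-*Erg* against control ran from -0.14 to 0.25 for *Cdkn2b* at Day 3, and at Day 7 from -0.26 to 0.04 for *Cdkn1b*, -0.41 to 0.47 for *Cdkn2a*, -0.65 to 0.18 for *Cdkn2b*, -0.54 to 0.84 for *Cdkn2c*, -0.24 to 0.47 for *Cdkn2d*, -0.04 to 0.09 for *Mdm2* and -0.1 to 0.23 for *Ccng1*. At 4 weeks it ran from -0.63 to 0.32 for *Cdkn2c* and -0.22 to 0.23 for *Mdm2*. Control Day 7 against Day 3 ran from -0.28 to 0.33 for *Cdkn1a*, -0.13 to 1.14 for *Cdkn2c*, -0.02 to 0.69 for *Cdkn2d* and -0.1 to 0.23 for *Ccng1*. Control 4 weeks against Day 7 ran from -0.42 to 0.2 for *Cdkn1a*, -0.15 to 0.22 for *Cdkn1b*, -0.01 to 0.84 for *Cdkn2b*, -0.56 to 0.16 for *Cdkn2d*, -0.12 to 0.08 for *Trp53* and -0.1 to 0.25 for *Ccng1*. Control 4 weeks against Day 3 ran from -0.26 to 0.07 for *Cdkn1a*, -0.01 to 0.07 for *Mdm2* and 0 to 0.26 for *Ccng1*. *Cdkn1c* ran from -0.01 to 0.91 in *Sox17*-*Erg* 4 weeks against Day 3, and the difference in effect from -0.21 to 0.1 for *Cdkn1a*, -0.18 to 0.18 for *Cdkn1b* and -0.14 to 0.68 for *Cdkn2a*.

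Of 157 calls of list genes, 53 were kept in every alternative. Counts over all genes depended on the tool and on single libraries. DESeq2 called 298 higher and 424 lower in control 4 weeks against Day 7, where edgeR called 27 and 34, and 662 and 346 against 345 and 153 for the difference in effect. With no filter these counts were 397 and 645, and 732 and 447. Control Day 7 against Day 3 gave 729 and 629 with edgeR and 1218 and 973 with DESeq2. Without 1 library edgeR called 201 to 1104 genes higher and 66 to 1001 lower at Day 3, 623 to 1371 and 297 to 1292 at Day 7 (1470 and 1230 with all libraries), 59 to 885 and 32 to 614 for control Day 7 against Day 3, 0 to 33 and 0 to 31 for control 4 weeks against Day 7, and 127 to 355 and 44 to 151 for the difference in effect. The block within time points was not run for time comparisons, nor the fit of 4 libraries for the difference in effect.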

Other observations

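*Cdkn1c* is an imprinted gene, and other imprinted genes that steer fetal growth were read beside it. Of 11 tested, none was called in *Sox17*-*Erg* against control samples at Day 3, 5 were lower at Day 7, and 2 were higher and 4 lower at 4 weeks, with median log2 fold changes of -0.63, -0.58 and -0.99. Of all genes, 7.93% were called lower at Day 7, and 11.9% higher and 11.0% lower at 4 weeks. At 4 weeks *Peg3* was lower by edgeR (log2 -2.8, SE 0.47, adjusted p = 0.0032), as was *Ndn* (-1.7, SE 0.16, 0.00014), and *Igf2r*, the receptor that clears Igf2, was higher (1.49, SE 0.19, 0.00083). From Day 3 to 4 weeks 7 of 11 were lower in control (12.6% of all genes) and 6 in *Sox17*-*Erg* samples (15.6%). *Slc38a4*, an amino acid transporter, had log2 fold changes of -5.34 (SE 0.25, adjusted p = 2.1e-05) and -7.26 (SE 0.3, 1.7e-05), and *Mest* in *Sox17*-*Erg* samples -2.89 (SE 0.42, 0.0019). These calls were kept in every alternative run for them.

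Secreted genes known from senescent cells, which accompany *Cdkn2a* in aged cultures, were called in both directions. Of 13 tested, 3 were called higher and 2 lower from Day 3 to 4 weeks in control samples and 2 and 3 in *Sox17*-*Erg* samples, with medians of -0.2 and -0.34. These counts were not far from the all-gene shares of 13.9% and 12.6% in control and 15.1% and 15.6% in *Sox17*-*Erg* samples. *Igfbp3* rose in control (log2 6.08, SE 0.45, adjusted p = 0.00013), *Igfbp5* rose in *Sox17*-*Erg* samples (2.38, SE 0.51, 0.009), and *Ccl7* and *Ccl2* fell there (-2.44, SE 0.29, 9e-04 and -1.5, SE 0.14, 0.00035). The level of p27 is set largely by its destruction. *Skp2*, the subunit that picks it for destruction, fell with time in *Sox17*-*Erg* samples (-2.2, SE 0.31, 0.0018) and in control (-1.39, SE 0.31, 0.012, lost in 2 of 18 alternatives). Of the 7 genes of p27 turnover and FoxO factors tested, 1 was called higher and 2 lower in *Sox17*-*Erg* against control samples at 4 weeks. Of all genes, 11.9% were called higher and 11.0% lower in that comparison. *Foxo3* (-1.25, SE 0.27, adjusted p = 0.01) and *Foxo4* (-0.82, SE 0.23, 0.03) were lower, calls lost in 3 and 5 of 19 alternatives. *Foxo1*, like them a factor known to switch on *Cdkn1b*, was higher (1.74, SE 0.17, 2e-04), with 96 and 81.2 CPM against 30.2 and 22.6 in control, while *Cdkn1b* had a log2 fold change of -0.22 (interval -0.63 to 0.18). Of 11 p53 regulators, 1 was called higher and 2 lower in the same comparison. *Rchy1*, a ubiquitin ligase of p53, was lower at 4 weeks (-0.65, SE 0.1, 0.0025), as was *Ppm1d* (-0.62, SE 0.12, 0.0072). *Trp53bp1* was higher (0.62, SE 0.11, 0.0043).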
